A study of Mus musculus with 12 samples.

Results

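The genes described here are the 10 genes of MHC class II antigen presentation named in the RNA-seq table of mouse haematopoietic stem cells (HSCs), namely *Cd74*, *H2-Aa*, *H2-Ab1*, *H2-Eb1*, *H2-DMa*, *H2-DMb1*, *H2-DMb2*, *H2-Oa*, *H2-Ob* and *Ciita*. They were found by their symbols, and all 10 were among the 24946 genes with a usable name. The 12 libraries formed 4 groups of 3 from C57BL/6 mice: *Bst2* knockout (KO) mice given recombinant mouse interferon-γ (IFN-γ, 100 µg) 24 h before, naive KO mice, wild-type (WT) mice given the same IFN-γ, and naive WT mice. Both knockout groups lack *Bst2*, a gene for an interferon-induced membrane protein, and how its allele was made is not given in the sources used here. HSCs were sorted from leg, pelvis and hip marrow, and the gate took cells with c-Kit and CD150 that lacked lineage markers, CD48 and CD34. Cells were sorted mouse by mouse, but no label ties a library to a mouse, so every p-value measures the spread between libraries. The values are normalized read signal per gene as the authors deposited it, called units below.

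MHC class II molecules are pairs of an alpha and a beta chain that carry peptides from the endosomes to the surface, where CD4 T cells read them. The invariant chain, encoded by *Cd74*, fills the groove of the new pair and guides it to the endosome. There H2-DM exchanges the last invariant chain fragment for peptide, and H2-DO restrains H2-DM. *Ciita* encodes the class II transactivator, which binds no DNA itself and is recruited by factors on the X and Y boxes of class II promoters. IFN-γ is a classical inducer of *Ciita*. Dendritic cells, B cells and macrophages are the usual sites of class II expression, and class II has also been described on mouse HSCs.

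In the RefSeq genome GRCm38.p6, 8 of the 10 genes lie on chromosome 17, in the order *H2-Oa*, *H2-DMa*, *H2-DMb2*, *H2-DMb1*, *H2-Ob*, *H2-Ab1*, *H2-Aa* and *H2-Eb1*.  No source used here gives the build behind the deposited values, and these positions describe the reference, not the counting. RefSeq promoter windows were matched by symbol for 7 of the 10 genes. The stretches below run from position -130 to position -31 from the annotated start and are printed 5′ to 3′ on the strand of the gene, because these 6 promoters show the letters of the X and Y boxes through which *Ciita* acts. Capitals mark the searched letters, which were ATTGG or CCAAT for the Y box, CCNAGNNAC for the core of X1, TGACG for the core of X2 (with its reverse, CGTCA) and, for a longer X stretch, AAC followed by any 2 bases and then ATGATG.
H2-Oa (chr17:34092249-34092348, + strand): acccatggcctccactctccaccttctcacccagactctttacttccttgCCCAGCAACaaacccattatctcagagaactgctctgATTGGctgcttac
H2-DMb2 (chr17:34145119-34145218, + strand): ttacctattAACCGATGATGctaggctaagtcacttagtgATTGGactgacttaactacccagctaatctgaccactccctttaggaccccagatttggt
H2-DMb1 (chr17:34153061-34153160, + strand): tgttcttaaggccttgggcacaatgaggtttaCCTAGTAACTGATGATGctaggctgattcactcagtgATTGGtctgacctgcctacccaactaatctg
H2-Ob (chr17:34238775-34238874, + strand): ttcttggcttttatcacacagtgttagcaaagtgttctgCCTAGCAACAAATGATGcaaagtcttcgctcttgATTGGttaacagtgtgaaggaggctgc
H2-Aa (chr17:34287854-34287953, - strand): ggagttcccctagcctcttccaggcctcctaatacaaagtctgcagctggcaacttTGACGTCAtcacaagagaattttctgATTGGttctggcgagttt
H2-Eb1 (chr17:34305737-34305836, + strand): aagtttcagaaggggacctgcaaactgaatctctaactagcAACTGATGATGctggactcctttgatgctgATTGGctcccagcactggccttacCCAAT

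All 6 stretches held ATTGG, the Y box read on the opposite strand. In the 250 bases before the start, with both strands searched, the Y box letters were present in all 7 genes with a window, against 33.8% of 32851 RefSeq promoters. These 7 genes had 8 windows, and *H2-DMa*, which is not printed, held the letters only in its window 2, at position -198. The X1 core was present in 5 of the 7 genes, against 14.5% of promoters, and 3 of its matches lie in the printed stretches (*H2-Oa*, *H2-DMb1* and *H2-Ob*). The X2 core was present in *H2-Aa* alone of the 7, against 17.8% of promoters. The longer X stretch was chosen after these sequences had been read, so its count is a description only. It was present in *H2-DMb2*, *H2-DMb1*, *H2-Ob* and *H2-Eb1*, which are 4 of the 39 promoters (0.119%) that hold it. In these 4 genes it began 28 to 31 bases before the ATTGG. In *H2-DMb1* and *H2-Ob* the X1 core and the X stretch share letters and are capitalised as a single run. A match is a run of letters and not a bound site.

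The library codes in the titles fall into 3 series, FL-06, R-09 and R-07, whose meaning no source used here gives. FL-06 holds 2 libraries of each WT group and 1 of each KO group, R-09 holds 1 library of every group, and R-07 holds 1 library of each KO group. The 4 R-09 libraries stood apart from the other 8. Of 10816 genes tested, 35.6% were higher and 32.3% lower in R-09 than in FL-06 libraries at an adjusted p below 0.05 in limma. The summed signal of 10 neutrophil markers was 70854 to 180226 units in the R-09 libraries, against 4784 to 10008 in the other 8, although the sort took lineage-negative cells. WT naive 2 also stood apart. From the spacing of its low values its depth was estimated at 0.495 M reads, against 8.77 to 52.1 M for the other 11 libraries, and a value of 3 spacings was worth 102 units there, against 1.02 to 5.22 elsewhere. That a spacing is 1 read was not shown, so the depths are rough. All 10 HSC markers were detected, with sums of 22841 to 28102 units in R-09 and 17091 to 22074 units in the other 8 libraries. *Bst2* separated the genotypes, with 0 to 24.8 units in the 6 KO libraries and 152 to 1514 units in the 6 WT libraries.

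After 24 h of IFN-γ, the invariant chain and the classical class II chains were higher than in naive HSCs in every combination of genotype and code series. Averaged over both genotypes, *Cd74* rose 4.48-fold, *H2-Eb1* rose 4.55-fold and *H2-Ab1* rose 2.72-fold, and these were the members past the threshold. They were 3 of the 9 members tested, against 0.0647% of all genes tested that were called higher (7 of 10816). No gene was called lower, and 655 genes had an unadjusted p below 0.05. *H2-DMb2* stayed below the minimum of 100 units in 3 libraries that a gene needed to be tested. *Ciita* met it only through treated libraries and *H2-Oa* only through R-09 libraries, so counts over the 9 tested genes are descriptions. Of these 9, all had an averaged log2 fold change above 0, with a median of 1.63, against 61.35% of genes above 0 and a median of 0.07 over all genes tested.

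**Figure D1:**
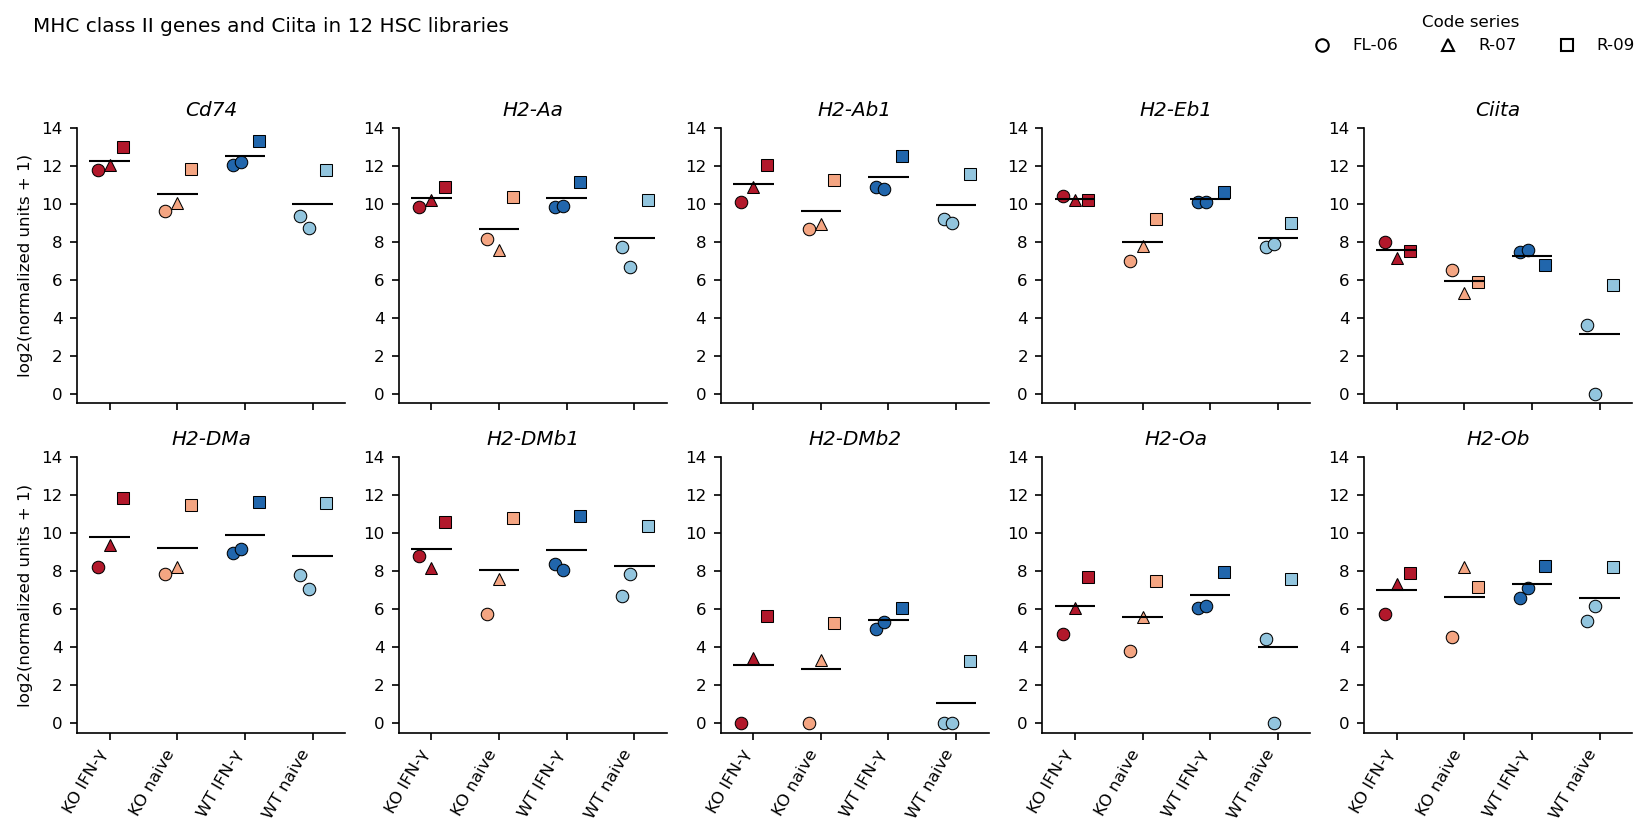
Each panel plots log2(units + 1) of a class II gene in the 12 libraries, with groups along the x axis, symbols for the code series and a line at the group mean. Treated libraries lie above naive ones for *H2-Eb1* and *Ciita* without overlap, and R-09 squares lie above the other libraries for *H2-DMa*, *H2-DMb1*, *H2-Ab1* and *H2-Oa*.

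*Cd74*, on chromosome 18 of the same genome, encodes the invariant chain, the chaperone of class II pairs. In KO HSCs it had 3560 (FL-06), 8293 (R-09) and 4211 (R-07) units after IFN-γ, against 797, 3612 and 1070 units in the naive libraries of the same code series. In WT HSCs it had 4224 and 4731 (FL-06) and 10261 (R-09) units after IFN-γ, against 669 and 429 (FL-06) and 3535 (R-09) units in naive libraries. The treated WT libraries were all above the naive ones, as for 2.1% of genes tested, whereas in KO the treated FL-06 library was just below the naive R-09 library. Within a code series, each treated library was above each naive one.

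Averaged over genotypes, the log2 fold change of *Cd74* was 2.16 (SE 0.21, limma adjusted p = 0.004041). By genotype it was 1.78 in KO (SE 0.30, limma adjusted p = 0.1641) and 2.55 in WT (SE 0.30, limma adjusted p = 0.03547). *Cd74* was the only gene called in WT, which is 0.00925% of the genes tested, and no gene of 10816 was called in KO (318 had an unadjusted p below 0.05). With the replicate number as a block, *Cd74* in WT kept its log2 fold change of 2.55 and missed the threshold (limma adjusted p = 0.1061, range over 21 alternatives 0.0002051 to 1). It was not called in 9 of the 12 fits that left out 1 library. The averaged call held without WT naive 2 (log2 fold change 2.00, limma adjusted p = 0.0001172) and without the 4 R-09 libraries (2.56, limma adjusted p = 0.008316), and over the 21 alternatives its adjusted p lay between 4.272e-06 and 0.9999, the last without the code series as a covariate. In bulk RNA a change in the share of cells that express *Cd74* and a change in its RNA per cell cannot be told apart.

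Markers of other class II-expressing cells, 10 genes per cell type and all found in the table, were summed in the same libraries. In the 8 libraries outside R-09, monocyte and macrophage markers summed to 170.2 to 354.7 units in the 4 treated libraries and 139.4 to 333.7 units in the 4 naive ones. B cell markers summed to 266 to 440.3 units in treated and 108.7 to 368.6 units in naive libraries, and dendritic cell markers to 436 to 570.6 units in treated and 372.1 to 738.6 units in naive libraries. These pooled ranges overlapped between treated and naive libraries for all 3 cell types. Within genotype and code series, however, the B cell sum was higher after IFN-γ in all 5 combinations, as *Cd74* was. In KO it was 266 (FL-06), 1183 (R-09) and 440.3 (R-07) units in treated libraries, against 128, 965.1 and 368.6 units in naive ones. In WT it was 373.8 and 420.6 (FL-06) and 1033 (R-09) units in treated libraries, against 108.7 and 251.2 (FL-06) and 965.7 (R-09) units in naive ones. The sum of 10 neutrophil markers was lower after IFN-γ in all 5 combinations. In KO it was 4784 (FL-06), 70854 (R-09) and 6364 (R-07) units in treated libraries, against 6271, 180226 and 9068 units in naive ones. In WT it was 6346 and 6863 (FL-06) and 74471 (R-09) units in treated libraries, against 9661 and 10008 (FL-06) and 138427 (R-09) units in naive ones. The B cell sum thus moved with treatment in the same direction as the class II genes, and the neutrophil sum in the opposite one. Of the dendritic cell markers, *Siglech* and *Cd300c* were listed at 0 in all 12 libraries and *Itgax* in 11, whereas *Zbtb46*, a transcription factor of classical dendritic cells, was above 0 in all 12, at 109.6 to 249.2 units in R-09 and 372.1 to 726.1 units in the others. Of the B cell markers, *Ms4a1*, which encodes CD20, reached at most 9.21 units and *Cd79b*, a subunit of the B cell receptor, had 47.3 units or more in every library. The part of these cells in the IFN-γ differences was not tested.

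**Figure D2:**
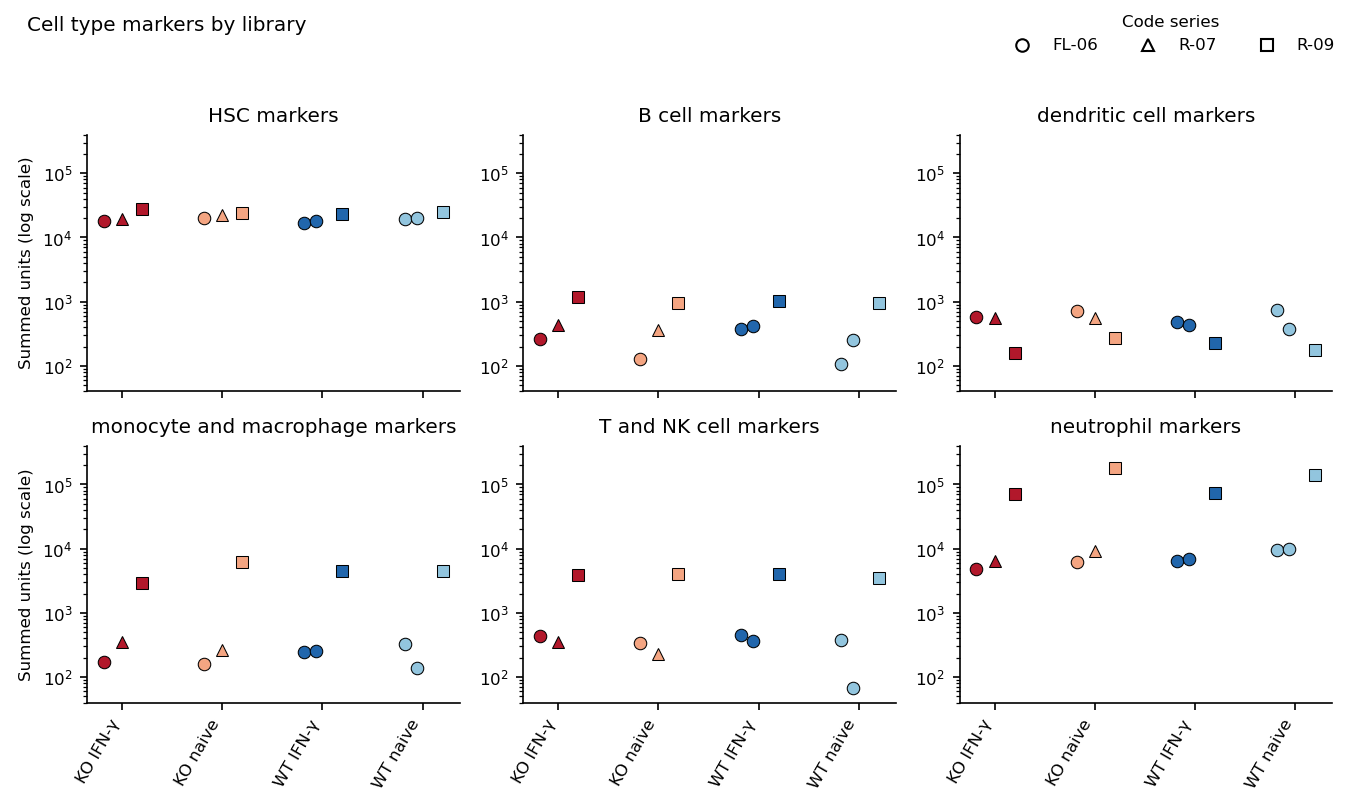
Summed units of 6 cell type marker lists (log scale) are plotted for each library by group, with symbols for the code series. R-09 squares lie above all other libraries for neutrophil, monocyte, T or NK cell and B cell markers and below them for dendritic cell markers.

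*H2-Eb1* encodes the beta chain of I-E. It had 1350 (FL-06), 1192 (R-09) and 1181 (R-07) units in treated KO HSCs, against 127, 591 and 217 units in naive KO HSCs of the same series. In WT it had 1093 and 1088 (FL-06) and 1610 (R-09) units after IFN-γ, against 210 and 234 (FL-06) and 505 (R-09) units in naive HSCs. All 6 treated libraries were above all 6 naive ones, a pattern found in 13 genes, 0.12% of those tested, of which *Ciita* is another. Within WT this held for *Cd74*, *H2-Eb1* and *Ciita*, beside 2.1% of genes tested, and within KO for *H2-Eb1* and *Ciita*, beside 1.22%. *Ciita* reached 100 units only in treated libraries and was tested through them, so its separation was partly set by that minimum. The averaged log2 fold change of *H2-Eb1* was 2.19 (SE 0.26, limma adjusted p = 0.01019). It was 2.28 in KO (SE 0.37) and 2.09 in WT (SE 0.37), and neither passed alone (limma adjusted p = 0.1641 and 0.2949). The averaged call was lost without WT IFN-γ 1 (limma adjusted p = 0.06069), WT IFN-γ 2 (0.05274), KO naive 2 (0.0931), KO IFN-γ 1 (0.05817) or KO IFN-γ 3 (0.1166), while the log2 fold change of *H2-Eb1* stayed between 1.98 and 2.42 in all fits without 1 library.

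C57BL/6 mice carry no functional I-E alpha gene. The pseudogene *H2-Ea-ps* was listed at 0 in all 12 libraries. *H2-Eb2*, a second I-E beta-like gene, was listed at 0 in all 6 naive libraries and reached at most 8.78 units in the treated ones, below the size that could be tested.

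*H2-Ab1* and *H2-Aa* encode the beta and alpha chains of I-A, the class II molecule that C57BL/6 mice display. *H2-Ab1* had 1107 (FL-06), 4298 (R-09) and 1912 (R-07) units in treated KO HSCs, against 409, 2476 and 483 units in naive KO HSCs. In WT it had 1913 and 1761 (FL-06) and 5858 (R-09) units after IFN-γ, against 588 and 511 (FL-06) and 3006 (R-09) units in naive HSCs. Treated and naive groups overlapped in both genotypes, because the naive R-09 libraries exceeded the treated FL-06 and R-07 libraries. Within each code series all treated libraries were higher. The averaged log2 fold change was 1.44 (SE 0.16, limma adjusted p = 0.00654), with 1.40 in KO (SE 0.23, limma adjusted p = 0.1641) and 1.48 in WT (SE 0.23, limma adjusted p = 0.1306). The averaged *H2-Ab1* call was lost without KO IFN-γ 1 (limma adjusted p = 0.05223, range over 21 alternatives 0.000171 to 0.9999).

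*H2-Aa* had 926 (FL-06), 1902 (R-09) and 1188 (R-07) units in treated KO HSCs, against 278, 1325 and 192 units in naive KO HSCs. In WT it had 914 and 931 (FL-06) and 2290 (R-09) units after IFN-γ, against 212 and 103 (FL-06) and 1160 (R-09) units in naive HSCs. The direction was the same in each code series, and the naive R-09 libraries again lay above the treated libraries of other series in the same genotype. The averaged log2 fold change of 1.85 (SE 0.32) did not pass the threshold (limma adjusted p = 0.09815). It passed in 5 of 21 alternatives, among them the fit without WT naive 2, the shallow library (log2 fold change 1.62, limma adjusted p = 0.0126, range over 21 alternatives 0.002127 to 0.9999).

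The log2 ratio of *Cd74* to *H2-Aa* lay between 1.45 and 2.47 in all 12 libraries, while *Cd74* itself spanned 429 to 10261 units. That of *H2-Aa* to *H2-Ab1* lay between -2.30, in the shallow WT naive 2, and -0.26. A ratio of units between genes is not corrected for length, so its size says nothing about which RNA was more abundant and its range across libraries is what is described.

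*Ciita*, on chromosome 16, had low values that were higher after IFN-γ. It had 256 (FL-06), 185 (R-09) and 141 (R-07) units in treated KO HSCs, against 91.7, 58.7 and 39.1 units in naive KO HSCs. In WT it had 178 and 188 (FL-06) and 109 (R-09) units after IFN-γ, against 11.4 and 0 (FL-06) and 52.6 (R-09) units in naive HSCs. All 6 treated libraries were at or above 109 units and all 6 naive ones at or below 91.7 units. The library at 0 is the shallow WT naive 2, where 3 spacings are worth 102 units, so a 0 there does not show that *Ciita* was absent. The averaged log2 fold change of 2.90 (SE 0.87) missed the threshold (limma adjusted p = 0.675). Without WT naive 2 it was 2.11 (limma adjusted p = 0.1331, range over 21 alternatives 0.08959 to 0.9999). *Ciita* was the only tested member with no called difference between R-09 and FL-06 libraries, at a log2 difference of 0.67 (SE 0.99, 95% confidence interval -1.50 to 2.85, limma adjusted p = 0.5571).

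H2-DM, the peptide exchange factor, pairs the product of *H2-DMa* with that of *H2-DMb1* or *H2-DMb2*. *H2-DMa* had 296 (FL-06), 3679 (R-09) and 666 (R-07) units in treated KO HSCs, against 233, 2922 and 304 units in naive KO HSCs. In WT it had 498 and 588 (FL-06) and 3222 (R-09) units after IFN-γ, against 222 and 133 (FL-06) and 3121 (R-09) units in naive HSCs. The values followed the code series more than the treatment. All 4 R-09 libraries were at or above 2922 units and all others at or below 666. The averaged IFN-γ log2 fold change was 0.86 (SE 0.24, limma adjusted p = 0.551), whereas the R-09 minus FL-06 difference was 3.49 (SE 0.28, limma adjusted p = 5.804e-07).

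*H2-DMb1* had 443 (FL-06), 1531 (R-09) and 284 (R-07) units in treated KO HSCs, against 52.8, 1802 and 190 units in naive KO HSCs. In WT it had 334 and 265 (FL-06) and 1953 (R-09) units after IFN-γ, against 103 and 229 (FL-06) and 1326 (R-09) units in naive HSCs. In the R-09 libraries of KO mice the treated value was the lower one, and elsewhere the treated values were higher. *H2-DMb2*, its neighbour and close paralogue, had 0 to 65.0 units over the 12 libraries, with 4 libraries listed at 0. Reads shared between *H2-DMb1* and *H2-DMb2* could be split either way, so both are uncertain. The averaged IFN-γ log2 fold change of *H2-DMb1* was 0.97 (SE 0.39, limma adjusted p = 0.7951).

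H2-DO, the modulator of H2-DM that is known mainly from B cells and thymus, is made by *H2-Oa* and *H2-Ob*. *H2-Oa* had 178 to 246 units in the 4 R-09 libraries and 0 to 70.9 units in the other 8. *H2-Ob* had 143 to 305 units in the R-09 libraries and 22.5 to 296 units in the others, the highest of which was the R-07 naive KO library. The 2 genes differed in this, since R-09 stood clear of all other libraries for *H2-Oa* and overlapped them for *H2-Ob*. The averaged IFN-γ log2 fold changes were 1.63 for *H2-Oa* (SE 0.87, limma adjusted p = 0.7964) and 0.55 for *H2-Ob* (SE 0.45, limma adjusted p = 0.8081). The value for *H2-Oa* rests largely on WT naive 2, which was listed at 0, since within WT FL-06 it was 3.89 with that library and 1.67 without it.

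Within each combination of genotype and code series the treated and naive libraries share series and genotype. In this comparison 7 of the 9 tested members were higher after IFN-γ in all 5 combinations, against 4.52% of all genes tested. They were *Cd74*, *H2-Aa*, *H2-Ab1*, *H2-Eb1*, *H2-DMa*, *H2-Oa* and *Ciita*. The place of *Ciita* here was partly set by the minimum of 100 units, which it reached only in treated libraries. For *Cd74* the log2 differences were 2.16, 1.97 and 1.20 in KO FL-06, R-07 and R-09, and 3.06 and 1.54 in WT FL-06 and R-09. For *H2-Eb1* they were 3.40, 2.44 and 1.01 in KO and 2.29 and 1.67 in WT, in the same order. Over all genes tested the medians of the 5 combinations lay between -0.0248 and 0.133.

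**Figure D3:**
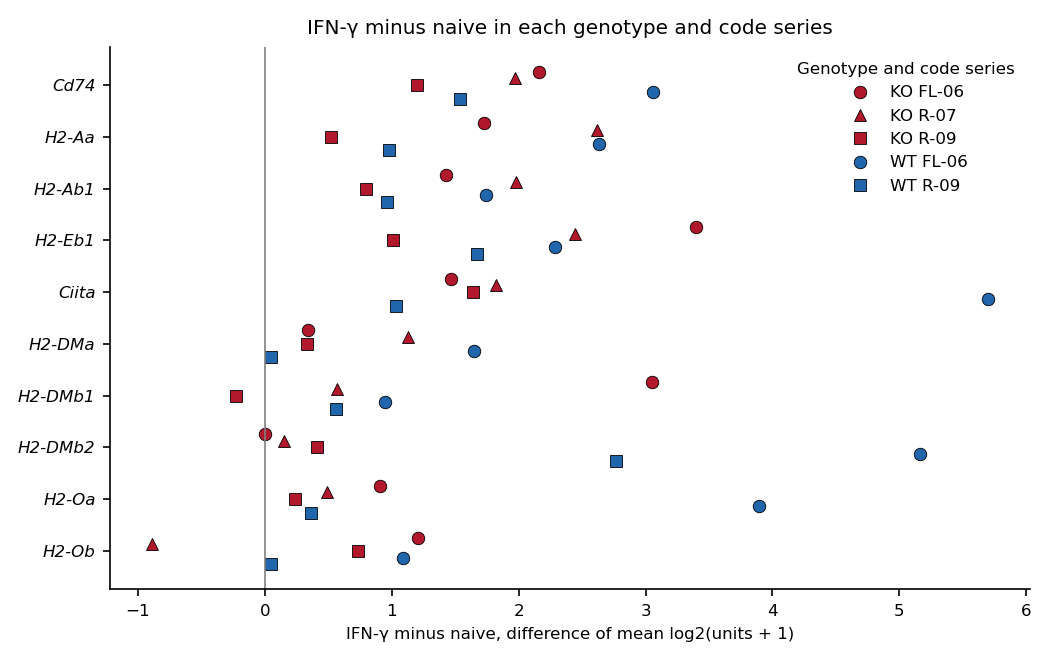
The difference of mean log2(units + 1), IFN-γ minus naive, is plotted for the 10 genes within each genotype (colour) and code series (symbol), each point resting on 1 or 2 libraries per treatment. The 4 genes at the top are above 0 in all 5 combinations, with R-09 squares at 0.52 to 1.67, while *H2-DMb1* and *H2-Ob* each have 1 combination below 0.

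The members were higher in R-09 libraries in an order different from their IFN-γ order. In the fit with equal group means, 8 of 9 members were called higher in R-09 than in FL-06 (limma), beside 35.6% of all genes tested. The fold differences were 11.3 for *H2-Oa*, 11.2 for *H2-DMa*, 8.75 for *H2-DMb1*, 4.45 for *H2-Ab1*, 4.31 for *H2-Ob*, 3.80 for *H2-Aa*, 3.60 for *Cd74* and 1.91 for *H2-Eb1* (limma adjusted p from 5.804e-07 to 0.01658). *H2-DMa* and *H2-DMb1*, with averaged IFN-γ log2 fold changes below 1, thus had series differences above 3, and *H2-Eb1* and *Ciita*, with IFN-γ values above 2, had the lowest series differences of the 9. Other members did not follow this order. *Cd74* had an IFN-γ value of 2.16 and a series difference of 1.85, and *H2-Oa* had 1.63 and 3.49. *H2-Ob*, with the lowest IFN-γ value (0.55), had a series difference of 2.11. The calls of *H2-Eb1* and *H2-Oa* were lost without WT naive 3 (limma adjusted p = 0.0727 and 0.06204), and that of *H2-Eb1* also without KO naive 1 (0.06082) or KO naive 3 (0.05741). All 4 R-09 libraries were above the other 8 for *H2-Ab1*, *H2-DMa*, *H2-DMb1* and *H2-Oa*, a share of 4 of 9 beside 29.3% of all genes tested. *H2-Oa* reached 100 units only in R-09 libraries and was tested through them. Its place in these counts was thus partly set by that minimum. No member had all 4 R-09 libraries below the other 8, beside 26.0% of all genes tested.

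**Figure D4:**
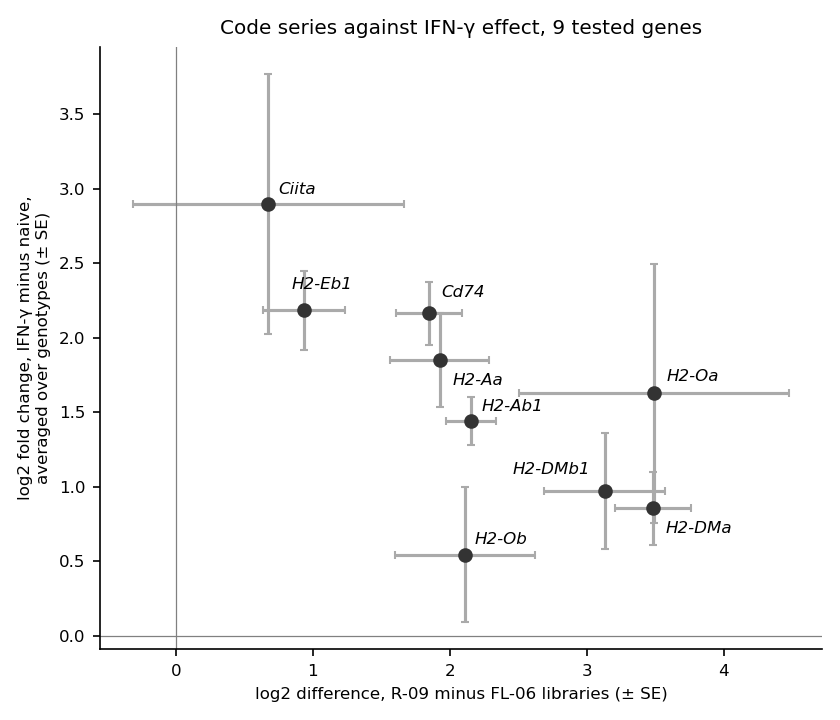
For the 9 tested genes, the R-09 minus FL-06 log2 difference (x axis) is plotted against the averaged IFN-γ log2 fold change (y axis), with bars of 1 SE. *Ciita* and *H2-Eb1* lie at the upper left (0.67 and 0.93 on the x axis), and *H2-DMa* and *H2-DMb1* at the lower right (3.49 and 3.13). *Cd74* (1.85 on the x axis, 2.16 on the y axis) and *H2-Oa* (3.49 and 1.63) lie outside these corners.

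Markers of other cells moved with the code series. Monocyte and macrophage markers summed to 2925 to 6286 units in R-09, against 139.4 to 354.7 in the other 8 libraries. B cell markers summed to 965.1 to 1183 units in R-09 and 108.7 to 440.3 in the others. In R-09 most of the B cell sum came from *Cd79b*, at 824.9 to 925.6 units there and 47.3 to 163 units in the others. The T and NK cell markers summed to 3521 to 4097 units in R-09 and 66.84 to 450.7 in the others, nearly all of it *Nkg7* in R-09 (3208 to 3732 units), with *Cd3e* and *Ncr1* at 0 in all 12 libraries. The dendritic cell sum went the other way, with 156.4 to 273.3 units in R-09 and 372.1 to 738.6 in the others. Most of it came from *Zbtb46*, at 109.6 to 249.2 units in R-09 and 372.1 to 726.1 units in the others. Other markers of this list differed. *Ccr7* had 11.6 to 16.1 units in R-09 and 0 in the others, and *Batf3*, *Cd209a* and *Klrd1* were above 0 in R-09 alone. *Xcr1* was highest in R-09, and *Clec9a* and *Itgax* were highest outside it. Within R-09, monocyte and macrophage markers summed to 2925 and 4485 units in the treated libraries and 4479 and 6286 in the naive ones. The part of these cells in the series difference was not tested.

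The log2 ratio of *Cd74* to *H2-DMa* separated treated from naive libraries once the series was held fixed. Outside R-09 it was 2.66 to 3.58 in the 4 treated libraries and 1.59 to 1.81 in the 4 naive ones. In R-09 it was 1.17 and 1.67 in treated libraries and 0.18 and 0.31 in naive ones. Over all 12 libraries the treated (1.17 to 3.58) and naive (0.18 to 1.81) ranges overlapped.

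The estimated IFN-γ effect in R-09 minus that in FL-06 was below 0 for all 9 tested members, while 41.62% of all genes tested were above 0. Its median over the members was -1.38, beside -0.10 over all genes tested. For *Cd74* it was -1.28 (SE 0.31) and for *H2-Eb1* -1.38 (SE 0.47). None passed the threshold (limma adjusted p = 0.9894 for each of the 9). Before adjustment 4 members and 372 of all genes had a p below 0.05. The FL-06 libraries include the shallow WT naive 2, where *Ciita* and *H2-Oa* were listed at 0. Within WT FL-06 the IFN-γ log2 difference of *Ciita* was 5.70 with that library and 3.88 without it.

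The comparison of genotypes asked whether loss of *Bst2* changed class II levels or their rise after IFN-γ. No member was called in naive HSCs, in treated HSCs or in the difference of the IFN-γ effects, and no gene of 10816 was called in any of the 3 comparisons (702, 226 and 367 genes had an unadjusted p below 0.05 in limma). The deleted gene itself was not called, since *Bst2* had a KO minus WT log2 difference of -6.72 in naive (SE 1.39, limma adjusted p = 0.7074) and -6.51 in treated HSCs (SE 1.39, limma adjusted p = 1). A difference of that size in the deleted gene was thus missed, and the lack of calls does not show that other genes were alike in KO and WT. *Cd74* had 5355 ± 2565 units in treated KO and 6405 ± 3349 in treated WT HSCs, and 1827 ± 1552 in naive KO and 1544 ± 1728 in naive WT HSCs (SD, n = 3 each). From highest to lowest mean the order was treated WT, treated KO, naive KO and naive WT. Treated WT and treated KO, and naive KO and naive WT, differed by less than their SD. These SDs hold the code series difference, and KO and WT differ in their series, so neither they nor this order measures the genotype. Within series, treated KO was below treated WT in FL-06 (3560 against 4224 and 4731 units) and R-09 (8293 against 10261). Naive KO was above naive WT in FL-06 (797 against 669 and 429) and R-09 (3612 against 3535). KO and WT values overlapped for all 9 tested members in naive and in treated HSCs, beside 1.41% of genes with KO above WT and 0.934% with KO below WT in naive HSCs, and 1.44% and 1.29% in treated HSCs.

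The intervals show what sizes remain possible. The log2 difference between KO and WT for *Cd74* was 0.40 in naive HSCs (95% confidence interval -0.30 to 1.10) and -0.38 in treated HSCs (-1.08 to 0.32). For *H2-Ab1* it was -0.45 in naive (-0.99 to 0.10) and -0.52 in treated HSCs (-1.07 to 0.02). For *Ciita* the naive difference was 2.93 (0.03 to 5.83, limma adjusted p = 0.7074), which includes WT naive 2 at 0, and the treated one was 0.43 (-2.47 to 3.33).

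The IFN-γ effect in KO minus that in WT was -0.77 for *Cd74* (SE 0.42, 95% confidence interval -1.70 to 0.15), -0.08 for *H2-Ab1* (-0.79 to 0.64), 0.20 for *H2-Eb1* (-0.96 to 1.36) and -0.46 for *H2-Aa* (-1.85 to 0.93), with limma adjusted p of 0.9331 to 0.9857. For *Ciita* it was -2.50 (SE 1.74, -6.34 to 1.34). All of these intervals hold 0, and for *Cd74* they also hold an effect in KO that is lower than in WT by up to 1.70 on the log2 scale. The *Cd74* and *Ciita* differences rest in part on the shallow WT naive 2. Without it the IFN-γ effect in WT was 2.22 for *Cd74* and 2.58 for *Ciita*, against 1.78 and 1.65 in KO.

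**Figure D5:**
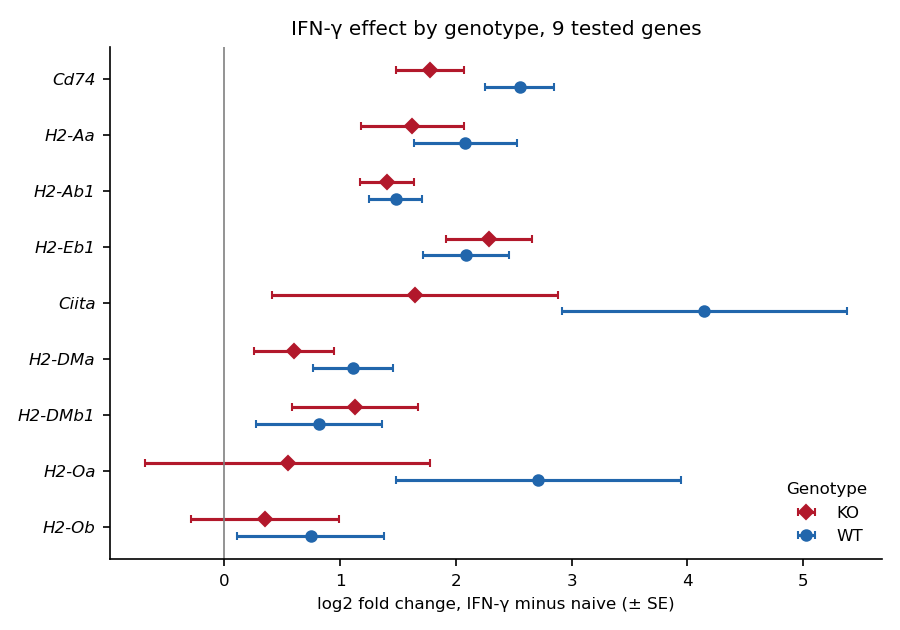
The IFN-γ log2 fold change (x axis) of the 9 tested genes is plotted for KO (diamonds) and WT (circles), with bars of 1 SE. The bars of the 2 genotypes overlap for 7 genes and not for *Cd74* (1.78 in KO, 2.55 in WT) or *Ciita* (1.65 in KO, 4.15 in WT), and no difference between genotypes passed the test. Without the shallow WT naive 2, which is not plotted, the WT values were 2.22 for *Cd74* and 2.58 for *Ciita*.

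No gene of 3 lists that act before or beside class II was called after IFN-γ. Before adjustment, 2 genes of these lists had an averaged p below 0.05, and *Socs1* was 1 of them. Of 10 factors of the class II promoter (the RFX and NF-Y subunits, *Creb1* and 3 coactivators), all 10 were tested and 0 were called by treatment or genotype, with a median averaged log2 fold change of -0.03. *Crebbp* and *Ep300*, the coactivators with the highest signal, had -0.19 (SE 0.10) and -0.24 (SE 0.13). Of 9 genes between the IFN-γ receptor and *Ciita*, all 9 were tested and 0 were called, with a median of 0.19. *Jak1*, a kinase of the IFN-γ receptor, had an averaged log2 fold change of -0.09 (SE 0.08). Of 10 genes of antigen processing and class II traffic, 8 were found under their symbols and 7 tested, with 0 called and a median of 0.00. *Ctsd*, an endosomal protease, had 0.00 (SE 0.09) and *Ap1m1*, a subunit of a sorting adaptor, -0.04 (SE 0.10).

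Outside the 10 class II genes, those most like *Cd74* over the 12 libraries, by Pearson's r of log2(units + 1), were *Tmem107* (0.945), *Tap1* (0.930), *Dhx58* (0.926), *Slc26a6* (0.924) and *Cmpk2* (0.924). After subtraction of each code series mean they were *H2-K1* (0.976), *Adck1* (0.966), *E2f1* (0.964), *Tap1* (0.962) and *Gbp3* (0.953). Among the other 8 tested members, r with *Cd74* without the subtraction was 0.974 for *H2-Aa*, above every gene outside the members, 0.928 for *H2-Ab1* and 0.911 for *H2-Eb1*, and 0.603 for *H2-Ob*, the lowest. After the subtraction it was 0.965 for *H2-Aa*, 0.937 for *H2-Eb1* and 0.930 for *H2-Ab1*, and 0.425 for *H2-Ob*, again the lowest. Outside the members, the genes most like *Ciita* after the subtraction were *Arfgap1* (0.977), *Tnfrsf21* (0.976), *St3gal4* (0.976), *Kcna3* (0.971) and *Cdc25c* (0.968). None of them was among the 5 most like *Ciita* without the subtraction. Among the members, r with *Ciita* after the subtraction was highest for *H2-Aa* (0.869) and lowest for *H2-DMb1* (0.238) and *H2-Ob* (0.062). All of these values share the libraries, their depths and their 4 groups, and they are descriptions.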

How the data were processed

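Bulk RNA-seq of 12 sorted HSC libraries was analysed, 3 in each of 4 groups. The authors deposited a normalized signal for each gene, which is never below 0. The tools named are STAR and DESeq, per the submitters' processing notes, and neither has a version there. No source used here states the genome build, the annotation or the use of strand. Of 24972 rows, 26 with names turned into dates were left out. Only 2.2 to 4.45% of values per library were whole multiples of the low-value spacing (tolerance 0.01), so no count model was used. Library totals were 13.83 to 17.68 M units, and 10567 to 14640 genes per library were above 0.

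Values were tested as log2(value + 1) for genes with at least 100 units in at least 3 libraries (10816 genes). The test was trended empirical Bayes in limma 3.58.1 (R 4.3.3). Adding 1 understates the change of low genes, but a 0 in the shallow WT naive 2 can overstate it. Within WT FL-06 the log2 difference of *Ciita* was 5.70 with that library and 3.88 without it. The model held 4 group means and the code series (residual df 6, prior df 5.02). The difference of the IFN-γ effect between code series came from a model with that term added (residual df 4, prior df 3.86). Adjusted p-values are Benjamini-Hochberg values over every gene tested, and 0.05 was the threshold. The scripts were checked on simulated data.

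Alternatives were no code series, a replicate block, a pseudocount of 10, a minimum of 20 or none, quantile normalization, rescaling by the median of ratios, array weights, omission of each library, and omission of R-09. In WT, same-numbered treated and naive libraries had correlations of 0.55, 0.46 and 0.83 between their deviations from the group mean. Numbers 1 and 2 are FL-06 and number 3 is R-09 in both WT groups. The KO correlations were -0.69, -0.67 and 0.50, and there same-numbered libraries are of different code series. These deviations still hold the code series difference, so they cannot show whether the numbers pair the libraries.

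All 10 members are named in the text. From companion lists, genes past the threshold in a treatment or genotype comparison were to be named and otherwise the 2 of highest mean. A gene that this rule names is not reported here. *Socs1*, *Cd86*, the genes named for a code series difference and single marker genes were chosen after their values were seen. The members and lists were chosen with earlier results of these data known.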

Additional observations from a re-analysis of the deposited data

How the results depend on the processing

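The averaged IFN-γ calls of *Cd74*, *H2-Ab1* and *H2-Eb1* were made in 20, 19 and 15 of 21 alternatives, and all 9 tested members stayed above 0 in each alternative that tested them. Without the code series no gene and 0 members were called in WT or averaged (1 gene and 1 member in WT and 7 and 3 in the average as reported). Genes and members called in WT were 5 and 2 with a pseudocount of 10, 4 and 2 with quantile normalization and 9 and 3 with array weights. In KO they were 7 and 3 with quantile normalization and also with array weights. Genes called in the average were 13 with a pseudocount of 10, 29 with quantile normalization, 42 with array weights and 21 without R-09. Without a filter, and without R-09, 2 genes were called in WT. The difference of IFN-γ effects between code series gave 3 genes with quantile normalization and 2 with array weights. The cause of these changes was not tested.

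With the replicate block 0 genes and 0 members were called in WT, 6 and 3 in the average, and the treated KO minus WT value of *H2-Aa* was -0.05. No other call of a member was changed by the block. Whether the replicate numbers pair libraries was not shown.

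When each library was left out in turn, genes and members called ranged over 0 to 13 and 0 to 1 in WT (13 without WT naive 3), 0 to 7 and 0 to 3 in KO (7 and 3 without WT naive 2) and 3 to 22 and 1 to 4 in the average (3 and 1 without KO IFN-γ 1, 22 and 4 without WT naive 2). KO minus WT gave 0 to 2 genes in naive and 0 to 1 in treated HSCs, and 0 to 2 for the difference of their IFN-γ effects. The difference between code series gave 0 to 2.

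Signs turned mainly in genotype comparisons. In naive HSCs KO minus WT was 0.06 for *H2-Ob* without the code series. With quantile normalization it was -0.02 for *H2-DMa* and -0.54 for *H2-Oa*, and with array weights -0.02 for *H2-Aa*, -0.16 for *H2-DMa* and -0.01 for *H2-Oa*. With 1 library left out it ranged over -0.83 to 0.28 for *H2-Eb1*, -0.14 to 0.52 for *H2-DMa*, -1.07 to 0.65 for *H2-DMb1* and -0.37 to 2.06 for *H2-Oa*. In treated HSCs *H2-DMb1* was 0.05 without the code series, and the left-out ranges were -0.31 to 0.57 for *H2-Aa*, -0.58 to 0.39 for *H2-Eb1*, -0.87 to 0.33 for *H2-DMb1* and -0.32 to 0.92 for *Ciita*.

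The difference of IFN-γ effects, KO minus WT, was 0.04 for *H2-Ab1* with quantile normalization, and 0.04 for *H2-Aa*, 0.04 for *H2-Ab1* and -0.08 for *H2-DMb1* with array weights. Its left-out ranges were -0.96 to 0.03 for *H2-Aa*, -0.37 to 0.18 for *H2-Ab1*, -0.22 to 0.67 for *H2-Eb1*, -0.47 to 0.89 for *H2-DMb1* and -0.79 to 0.22 for *H2-Ob*. The KO effect of *H2-Ob* ranged over -0.05 to 0.97. R-09 minus FL-06 for *Ciita* was -0.33 with quantile normalization and -0.63 to 1.24 with 1 library left out, and its difference of IFN-γ effects between series ranged over -4.55 to 0.01.

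Depth limits low members in WT naive 2, where a 0 allows up to about 102 units if a spacing is 1 read. There *Ciita*, *H2-Oa* and *H2-DMb2* were listed at 0, *H2-Ob* had 72.6 units, *H2-Aa* 103 and *H2-DMa* 133, all near or below that.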

Other observations

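Of 6 costimulatory genes, 2 passed the minimum for testing and 0 were called by treatment or genotype. *Cd86*, a ligand of CD28, had an averaged IFN-γ log2 fold change of 2.20 (SE 1.07, limma adjusted p = 0.7951), and *Cd274*, which encodes PD-L1, had 0.40 (SE 0.44, limma adjusted p = 0.8388). *Tnfsf4*, which encodes OX40L, was not tested (mean log2 value 4.82). *Socs1*, an inhibitor of the IFN-γ receptor kinases, had 2.72 (SE 0.95, limma adjusted p = 0.7898).

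In R-09 libraries the factors of the class II promoter mostly ran opposite to the class II genes. Of the 10 factors, 6 were lower and 1 higher than in FL-06 libraries (limma), beside 32.3% lower and 35.6% higher over all genes tested. *Crebbp* had a log2 difference of -4.81 (SE 0.11), *Nfya*, a subunit of the factor that binds the Y box, -4.69 (SE 0.23) and *Ep300* -4.46 (SE 0.15). *Rfxank*, a subunit of the factor that binds the X box, had 1.41 (SE 0.25). Of 7 tested genes of antigen processing, 4 were higher (*Ap1m1*, *Ctsb*, *Ctsd* and *Ctss*) and 0 lower.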
